A study of Mus musculus with 9 samples.

Results

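The genes described here encode the voltage-gated sodium and calcium channels and the potassium channels, with their auxiliary subunits. Members were taken by symbol: every potassium channel gene named Kcn with a family letter and a number, every sodium channel gene named Scn with a number and the letter a or b, and every calcium channel gene whose name begins with Cacna, Cacnb or Cacng, Kcne2 left out. This gave 121 genes measured on a probe set of their own, of 22180 such genes on the array. By role there were 36 pore subunits of voltage-gated potassium channels, 10 of their auxiliary subunits, 12 subunits of calcium- and sodium-activated potassium channels, 14 inward rectifiers, 13 two-pore-domain potassium channels, 8 sodium pore subunits, 3 sodium β subunits, 10 calcium pore subunits, 4 α2δ subunits, 3 calcium β subunits and 8 calcium γ subunits. Kcnj13 and Kcnk3 were read only by probe sets that also name another gene, and they were not used here.

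RNA came from mouse brain lesions and was hybridized to 9 Affymetrix arrays, 3 for each of 3 groups. The high-DOX P3 group was tumor tissue of the genotype hPDGF-A;hPDGFRα;p53lox from mice on a diet with 600 mg/kg doxycycline (DOX). The low-DOX P3 group was tumor tissue of the same genotype from mice on a diet with 25 mg/kg DOX. The OPC lesion group was labelled as oligodendrocyte precursor cells (OPCs) on the 600 mg/kg diet. The labels write its genotype as hPDGFRα;p53, while the paper describes OPC lesions of conditional p53 mice that lack the receptor transgene and received the same lentivirus. Every group therefore carries a conditional p53 allele and received DOX, and there was no array of normal brain. The p53 state need not be shared: the paper reports wild-type p53 expression in cells of the OPC lesions, while its cultures of P3 tumors lacked p53. In P3 mice the human receptor PDGFRα is driven by the CAG promoter once Cre has removed a stop cassette, and Cre arrives with the DOX-inducible human PDGF-A ligand on one lentivirus injected into the striatum of adult mice. RNA was isolated from frozen tumors and no sorting of cells is described, so that host brain cells could be in it. In such bulk RNA, fewer cells of a type and less RNA per cell cannot be told apart.

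Voltage-gated sodium channels carry the upstroke of the action potential, voltage-gated calcium channels turn depolarization into calcium entry and transmitter release, and potassium channels set the resting potential and end the spike. Each pore works with auxiliary subunits that set its surface level, gating and partners. Neurons express the broadest choice of these genes, but OPCs are also electrically active glia with sodium, A-type potassium and two-pore-domain potassium channels, and astrocytes rely on the inward rectifier Kcnj10 to buffer potassium.

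Values are log2 signals as the authors normalized them. A signal above the 95th percentile of 1390 olfactory and vomeronasal receptor genes on the same array, presumed silent in brain, was called above background; this bound lay between 4.24 and 4.49 (log2). By this measure 94 of the 121 channel genes were above background on every high-DOX P3 array, 82 on every low-DOX P3 array and 96 on every OPC lesion array. In at least 1 group 100 of them passed (82.6%, against 65.4% of all genes), and 78 passed in all 3 groups (64.5%, against 59.7% of all genes).

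Markers of several cell types differed between arrays of a group and between the doses. The mean of 19 neuronal marker genes was 8.49, 10.56 and 7.03 (log2) in high-DOX P3 replicates 1, 2 and 3. It was 6.77, 5.89 and 6.70 in the low-DOX P3 replicates and 10.43, 6.53 and 9.09 in the OPC lesions. The high diet had the higher mean for all 19 markers when the P3 groups were compared, 8 of them with an unadjusted p under 0.05, and Snap25, a defining neuronal marker, was at 6.67 or higher on all 9 arrays. The mean of 12 OPC markers, which include Pdgfra, Olig2 and Sox10, was 10.48, 8.86 and 10.59 in high-DOX P3 tumors, 8.94, 10.25 and 9.21 in low-DOX P3 tumors, and 8.96, 9.85 and 10.01 in OPC lesions. The range in OPC lesions lay within that of the P3 tumors, and without normal brain the OPC label could not be checked by this list. OPC lesion replicate 1 had the lowest OPC mean of its group and the highest neuronal mean. Markers of several further kinds of cell ran mostly the other way from the neuronal list when the doses were compared. All 11 markers of myelinating oligodendrocytes had the lower mean in high-DOX tumors (median log2 difference -1.30), 4 of them with an unadjusted p under 0.05, and the list mean was 6.98 to 8.07 in high-DOX tumors, 8.15 to 11.05 in low-DOX tumors and 7.55 to 9.04 in OPC lesions. Of 11 microglial markers, 8 were lower (median -1.24), 6 with such a p, and the list mean was 6.68 to 7.75 in high-DOX tumors, 7.82 to 8.91 in low-DOX tumors and 7.14 to 8.21 in OPC lesions. All 8 markers of fibroblasts and meninges were lower in high-DOX tumors (median -0.82), 0 of them with such a p. Of 10 endothelial markers, 7 were lower (median -0.64), 2 with such a p. Of 10 mural cell markers, 7 were lower (median -0.25), 1 with such a p. By contrast, 9 of the 12 OPC markers had the higher mean in high-DOX tumors (median 0.70), 0 with such a p. Of all genes, 5.25% had such a p in the higher direction and 4.89% in the lower. The part of these cell types in the channel values was not tested. High-DOX P3 replicate 2 also had Ttr, a choroid plexus marker, at 12.46, against 4.68 to 5.32 on the other 8 arrays.

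Averaged over all 121 genes, the channel signal was 6.48, 7.0 and 5.95 in high-DOX P3 replicates 1 to 3. The averages were 5.61, 5.74 and 5.53 in the low-DOX P3 replicates and 7.08, 5.68 and 6.43 in the OPC lesions. High-DOX P3 replicate 2 held the highest value of 34 channel genes (28.1%, against 13.6% of all genes) and OPC lesion replicate 1 that of 39 (32.2%, against 11.6% of all genes). These were also the arrays with the 2 highest neuronal means. Low-DOX P3 replicate 3 held the lowest value of 32 channel genes (26.4%, against 16.0% of all genes).

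**Figure D1:**
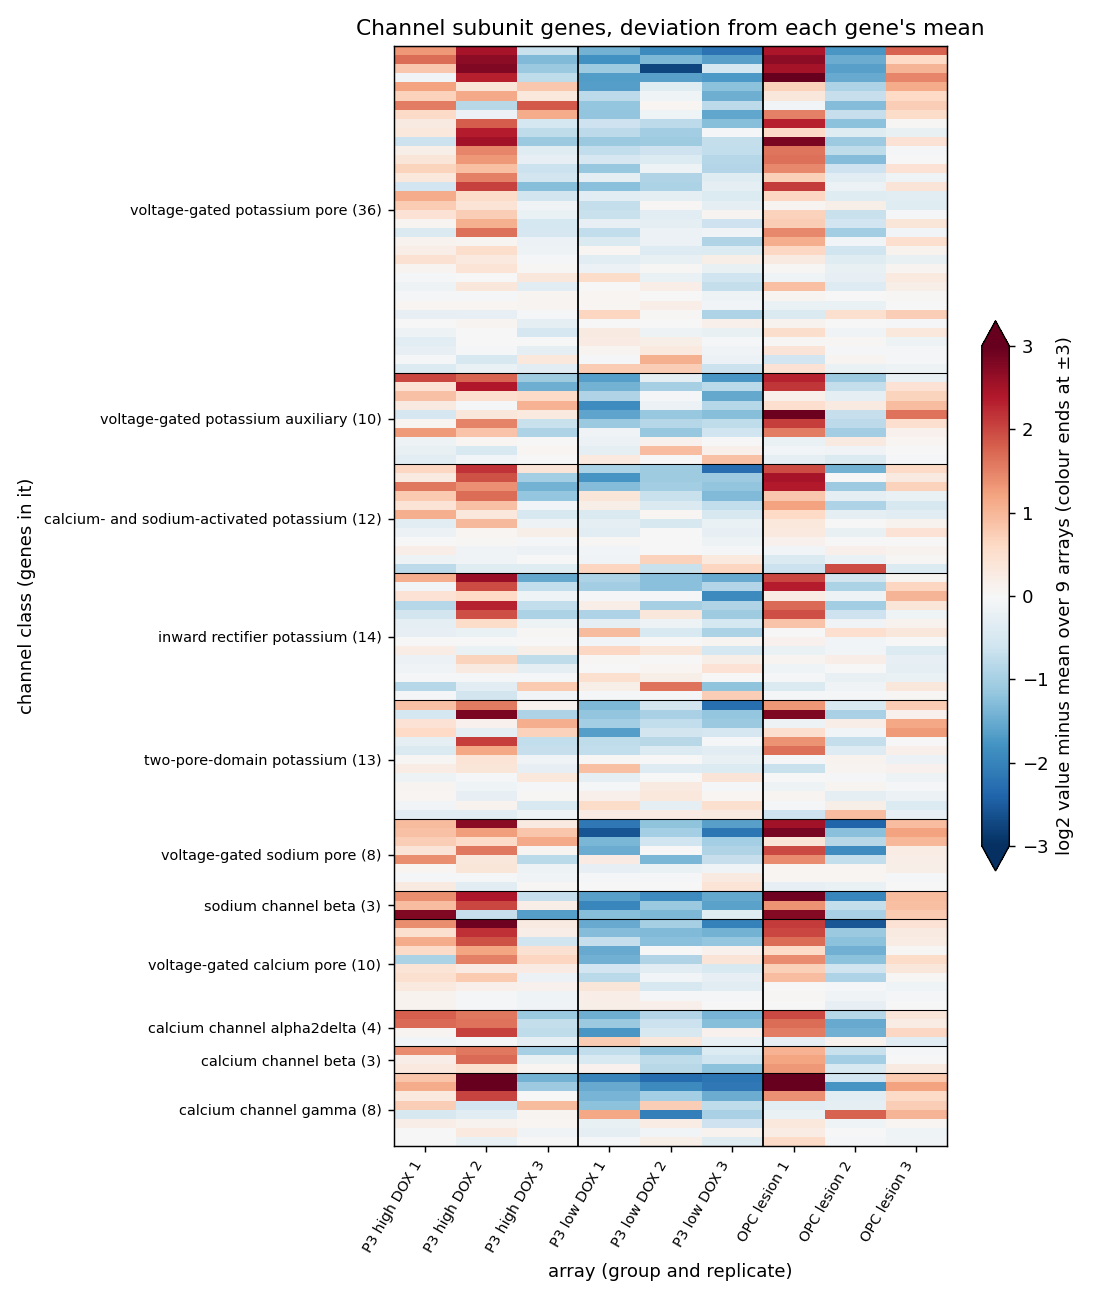
Deviation of each channel gene from its own mean over 9 arrays (log2, color scale ending at ±3), with genes in rows by class (number in parentheses) and arrays in columns. High-DOX P3 replicate 2 and OPC lesion replicate 1 are the darkest red columns, the 3 low-DOX P3 columns are mostly blue, and the inward rectifiers hold many pale rows.

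The effect of ligand dose was addressed by setting high-DOX against low-DOX P3 tumors. No channel gene passed an adjusted p of 0.05 (limma with Benjamini-Hochberg adjustment over 22180 genes; 0 of 121 in either direction), and neither did any other gene (0% called in each direction). The channel genes nevertheless lay mostly on one side. In high-DOX tumors 93 of 121 had the higher mean (76.9%, against 50% of all genes), with a median log2 difference of 0.75 against 0.00 over all genes. With an unadjusted p under 0.05 there were 20 channel genes higher in high-DOX tumors (16.5%, background 5.25%) and 0 lower (background 4.89%). The 3 high-DOX arrays lay wholly above the 3 low-DOX arrays for 35 channel genes (28.9%, background 8.23%) and wholly below them for 2, Kcnj5 and Kcnk5 (1.65%, background 7.76%). The two-sided test named in the methods gave 0 adjusted calls. At the unadjusted threshold it gave 17 higher channel genes (14%, against 3.72% of all genes) and 1 lower (0.826% against 3.75%). Single arrays weighed on these figures. The 20 genes became 12 without high-DOX replicate 1 (9.92%, against 4.35% of all genes) or low-DOX replicate 3 (9.92% against 2.96%), 13 without high-DOX replicate 2 (10.7% against 4.22%) and 37 without high-DOX replicate 3 (30.6% against 6.51%). Without OPC lesion replicate 1 there were 30 (24.8% against 6.03%). The median became 0.39 without high-DOX replicate 2.

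Sodium β and α2δ subunits had the largest class medians, and two-pore-domain channels and inward rectifiers the smallest. The median log2 difference between high-DOX and low-DOX tumors was 2.61 for the 3 sodium β subunits, 1.52 for the 4 α2δ subunits, 1.30 for the 10 potassium auxiliary subunits, 1.21 for the 8 sodium pores, 1.17 for the 3 calcium β subunits and 0.90 for the 10 calcium pores. It was 0.65 for the 36 voltage-gated potassium pores, 0.58 for the 8 calcium γ subunits and 0.55 for the 12 calcium- and sodium-activated channels. The 13 two-pore-domain channels had a median of 0.17 and the 14 inward rectifiers a median of 0.00, with 7 inward rectifiers on each side of 0. Differences between classes were not tested.

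**Figure D2:**
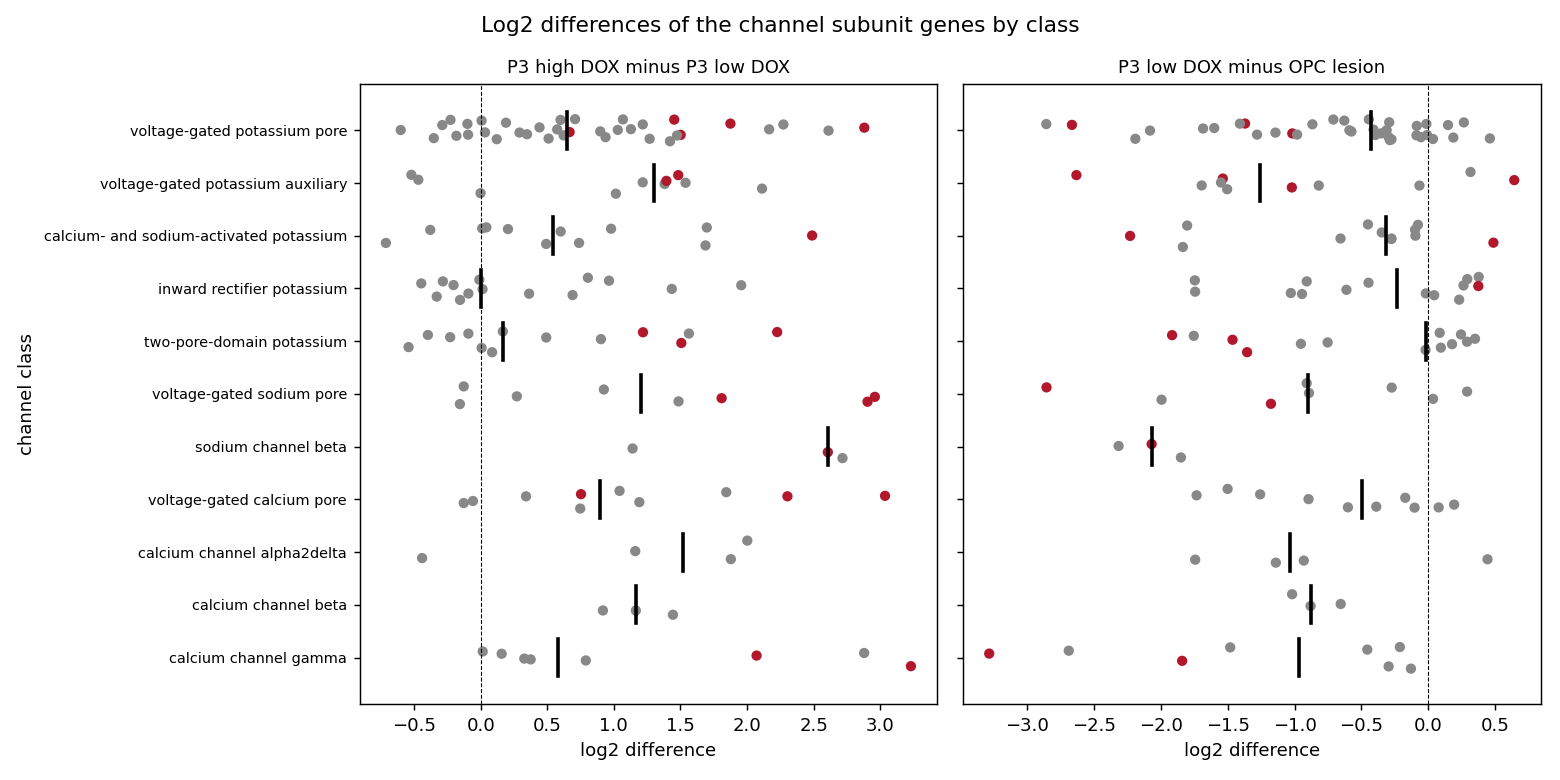
Log2 difference of each channel gene by class (1 point per gene, black bar at the class median, red points with an unadjusted limma p under 0.05), for high-DOX minus low-DOX P3 on the left and low-DOX P3 minus OPC lesion on the right. On the left the class medians run between 0.00 for inward rectifiers and 2.61 for sodium β subunits, and on the right they run between -2.07 and -0.02.

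Among the sodium channels, 4 genes had unadjusted p-values under 0.05 between the doses, all higher in high-DOX tumors. They were 3 of the 8 pores and 1 of the 3 β subunits (background 5.25% of all genes). Scn3b, a β subunit that modulates sodium channel gating and surface expression, was at 9.07, 10.14 and 8.33 in high-DOX tumors, at 6.18, 7.02 and 6.53 in low-DOX tumors and at 9.48, 7.41 and 9.04 in OPC lesions. The low-DOX arrays lay below all 6 others. Its high-DOX mean was 6.09-fold that of the low-DOX tumors (log2 difference 2.61 ± 0.62, SE; limma adjusted p = 0.38). Scn3a, the pore Nav1.3 that is prominent in the developing brain, was at 8.25, 8.10 and 8.66 in high-DOX tumors, 6.15, 6.93 and 6.50 in low-DOX tumors and 7.90, 6.68 and 8.53 in OPC lesions. High-DOX and low-DOX arrays did not overlap, and the high-DOX mean was 3.51-fold higher (log2 difference 1.81 ± 0.44; adjusted p = 0.38). Scn1a, the pore Nav1.1 of fast-spiking interneurons, was at 7.03, 7.40 and 7.0 in high-DOX tumors, and 2 of its low-DOX values (3.58, 5.14 and 4.0) were under the background bound. Scn2a, the pore Nav1.2 of excitatory axons, was at 8.58, 10.33 and 7.89 in high-DOX tumors against 5.49, 6.43 and 6.0 in low-DOX tumors, a 7.78-fold difference in means. Scn8a, the pore Nav1.6 of mature nodes, did not overlap between doses either but had a smaller log2 difference of 1.49 ± 0.92.

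Scn2b, a β subunit of brain sodium channels, was at 8.07, 9.09 and 5.99 in high-DOX tumors, 5.06, 4.80 and 5.14 in low-DOX tumors and 9.60, 4.72 and 7.62 in OPC lesions. Its arrays did not overlap between the doses, and the high-DOX mean was 6.58-fold that of the low-DOX tumors (log2 difference 2.72 ± 1.21; adjusted p = 0.50). Scn4b, a β subunit abundant in striatal projection neurons, was at 7.84, 4.38 and 3.42 in high-DOX tumors, 3.80, 3.72 and 4.70 in low-DOX tumors and 7.83, 4.10 and 5.85 in OPC lesions. High-DOX replicate 1 alone carried the high value in its group, and the same array had the highest mean of 6 striatal projection neuron markers, 8.98 against 5.22 to 7.91 on the other arrays. Whether those cells account for the Scn4b value was not tested. Scn7a, an atypical sodium channel of glia that senses sodium, was at 6.42, 5.38 and 4.23 in high-DOX tumors and 5.27, 3.64 and 4.33 in low-DOX tumors, with overlap. The pain-fiber pores Scn9a, Scn10a and Scn11a were below background on all 9 arrays.

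Among the calcium channel genes, 3 pores (Cacna1b, Cacna1d and Cacna1e) and 2 γ subunits (Cacng3 and Cacng8) had unadjusted p-values under 0.05 between the doses. All were higher in high-DOX tumors, out of 10 pores and 8 γ subunits (background 5.25% of all genes). Cacng3, a transmembrane AMPA receptor regulatory protein, was at 8.11, 11.04 and 5.86 in high-DOX tumors, 5.28, 4.96 and 5.08 in low-DOX tumors and 10.43, 6.70 and 8.05 in OPC lesions. Its log2 difference of 3.23 ± 1.33 between the doses was the largest of the 121 genes (adjusted p = 0.47), yet high-DOX replicate 3 was only slightly above the low-DOX arrays. Cacng2, known as stargazin, was at 7.40, 9.34 and 5.21 in high-DOX tumors against 4.79, 4.38 and 4.14 in low-DOX tumors, and had its lowest high-DOX value in the same replicate (log2 difference 2.88 ± 1.33). Cacng8, another member of the AMPA receptor regulatory group, was at 8.01, 9.75 and 7.72 in high-DOX tumors and 6.32, 6.71 and 6.23 in low-DOX tumors, a 4.21-fold difference. The pores Cacna1e (R-type) and Cacna1b (N-type, for transmitter release) had log2 differences of 3.04 ± 1.14 and 2.30 ± 0.79 (adjusted p = 0.44 and 0.43). Cacna1d, the L-type pore Cav1.3, had a smaller log2 difference of 0.75 ± 0.30, with 7.33, 7.18 and 7.19 in high-DOX tumors against 6.35, 6.61 and 6.47 in low-DOX tumors. Cacna1a, the P/Q-type pore of transmitter release, overlapped between the doses with a log2 difference of 0.75 ± 0.47. Cacna1i, a T-type pore, had a larger one of 1.84 ± 0.81 that did not reach that p either.

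The remaining γ subunits overlapped between the doses, at very different signals. Cacng7 was at 11.25, 11.16 and 11.12 in high-DOX tumors, 10.83, 11.29 and 10.43 in low-DOX tumors and 11.38, 10.93 and 11.12 in OPC lesions. Cacng4, an AMPA receptor regulatory protein expressed in OPCs, was at 11.50, 10.20 and 11.72 in high-DOX tumors, 9.52, 11.51 and 10.01 in low-DOX tumors and 10.44, 10.48 and 11.49 in OPC lesions. Its order of arrays within high-DOX tumors was that of the OPC marker mean, with replicate 2 lowest. Cacng5 was lowest in low-DOX replicate 2 at 5.73 and highest in OPC lesion replicate 2 at 9.54. Cacng6 was near the background bound (4.32 to 4.90), and Cacng1, the γ subunit of skeletal muscle, was below it on all 9 arrays. The α2δ subunits Cacna2d1, Cacna2d2 and Cacna2d3, which traffic calcium pores, overlapped between the doses (log2 differences 1.16 ± 0.96, 1.88 ± 0.88 and 2.00 ± 0.90), as did Cacna1g, a T-type pore (1.04 ± 0.85). Cacna1c, the L-type pore Cav1.2, was at 8.18, 8.78 and 8.04 in high-DOX tumors against 6.09, 7.61 and 7.73 in low-DOX tumors, a log2 difference of 1.19 ± 0.60.

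A-type potassium channels carry a fast transient current and pair Kv4 pores with Kv channel-interacting proteins. Of the pores, Kcnd2 and Kcnd3 had an unadjusted p under 0.05 between the doses and Kcnd1 did not, and of the partners, Kcnip1 and Kcnip3 had one and Kcnip2 and Kcnip4 did not. Kcnd2, the pore Kv4.2, was at 10.69, 9.83 and 10.28 in high-DOX tumors, 7.82, 9.11 and 8.23 in low-DOX tumors and 10.17, 8.54 and 10.58 in OPC lesions. The high-DOX arrays all lay above the low-DOX arrays by a 3.67-fold difference in means (log2 difference 1.88 ± 0.56; adjusted p = 0.41). Kcnd3, the pore Kv4.3, was at 8.04, 8.49 and 7.66 in high-DOX tumors against 6.57, 7.22 and 5.89 in low-DOX tumors. Kcnd1, the pore Kv4.1, overlapped, with 6.25, 6.10 and 5.74 in high-DOX tumors against 5.49, 5.58 and 5.98 in low-DOX tumors (log2 difference 0.35 ± 0.22). The partner Kcnip3 was at 10.31, 9.92 and 9.99 in high-DOX tumors, 8.52, 9.37 and 7.88 in low-DOX tumors and 9.58, 9.16 and 10.09 in OPC lesions. Kcnip3 had a high-DOX SD of 0.21 and did not overlap between the doses (log2 difference 1.48 ± 0.38; adjusted p = 0.38). Kcnip1, the second partner, was at 8.22, 7.90 and 9.0 in high-DOX tumors against 6.06, 7.78 and 7.09 in low-DOX tumors (log2 difference 1.39 ± 0.46, limma adjusted p = 0.43). It was highest in replicate 3, which had the lowest neuronal mean of the high-DOX arrays but a higher one than every low-DOX array. Kcnip2 and Kcnip4, the remaining partners, overlapped between the doses (log2 differences 2.11 ± 1.07 and 1.54 ± 1.0) and had their lowest high-DOX value in that same replicate, at 5.29 and 4.54.

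Two-pore-domain channels carry the background potassium leak. Kcnk10, the stretch- and lipid-gated channel TREK-2, was at 8.06, 7.75 and 8.71 in high-DOX tumors, 6.60, 6.89 and 6.51 in low-DOX tumors and 7.47, 7.82 and 8.77 in OPC lesions. The low-DOX values lay below all 6 others, and the high-DOX mean was 2.84-fold higher (log2 difference 1.51 ± 0.36; adjusted p = 0.38). Its relative Kcnk2, or TREK-1, was at 8.98, 8.09 and 9.06 in high-DOX tumors, 6.74, 7.84 and 7.89 in low-DOX tumors and 8.89, 8.30 and 9.67 in OPC lesions, again with the low-DOX arrays lowest. Kcnk1, or TWIK-1, was at 9.35, 10.03 and 8.59 in high-DOX tumors, 7.14, 7.93 and 6.23 in low-DOX tumors and 9.77, 8.02 and 9.25 in OPC lesions, with no overlap between the doses (log2 difference 2.23 ± 0.60; adjusted p = 0.38). By contrast Kcnk6, or TWIK-2, and Kcnk13, or THIK-1 of microglia, had log2 differences of -0.40 ± 0.27 and 0.09 ± 0.39, with overlapping arrays. Kcnk9, the acid-sensitive TASK-3, was at 4.49, 7.83 and 4.09 in high-DOX tumors, where replicate 2 alone was far above the bound, and below background on every low-DOX array.

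The start of these genes gives some sequence context for members that had their lowest group mean in low-DOX tumors. RefSeq promoter windows on GRCm38.p6, running 250 bases before to 50 bases after the annotated start, were found for 93 of the 121 genes (127 windows). They were searched on both strands for the E-box letters CAGCTG and CAGATG, bound by basic helix-loop-helix factors such as those of the OPC and neuronal lineages, and for the letters CAGCACC and GGACAG, which are the left and right parts of the RE1 element that the repressor REST binds in neuronal genes. The letters CAGCTG were in 27.6% of the channel windows against 16.3% of all 32851 windows, CAGATG in 18.9% against 17.2%, CAGCACC in 7.87% against 7.14% and GGACAG in 25.2% against 22.2%. Windows of one gene can overlap, different motifs were allowed to overlap, and CAGCTG reads the same on both strands. The 30-base stretches below run 5′ to 3′ on the gene's own strand, with the matched letters in capitals (CTGTCC is GGACAG on the other strand). They show CAGCTG in the A-type partners Kcnip1 and Kcnip3, the TREK channel Kcnk2 and Cacng3, and GGACAG in Kcnk10, the other TREK channel. Windows of Kcnip3 and Kcnk2 also hold GGACAG, which is not printed for them. The same letters are not limited to such members: Kcne4, which had the higher mean in low-DOX tumors, holds both CAGCTG and GGACAG.
Kcnip3 (E-box, chr2:127522217-127522246, minus strand): gggagggtctagCAGCTGccgctaattggc
Kcnip1 (E-box, chr11:33993412-33993441, minus strand): gagtacctggggCAGCTGcggcttcctgct
Kcnk2 (E-box, chr1:189344194-189344223, minus strand): tgtagcctggaaCAGCTGgcaccatactct
Kcnk2 (E-box, second start, chr1:189343921-189343950, minus strand): aggacgcattggCAGCTGgggcgacgcgga
Cacng3 (E-box, chr7:122671684-122671713, plus strand): tcctaggttaccCAGCTGcagagtgattct
Kcnk10 (RE1 right part, chr12:98578302-98578331, minus strand): ctctgagatttgCTGTCCcaggatattctc
Kcnk10 (RE1 right part, chr12:98578242-98578271, minus strand): tccctgtgtgagCTGTCCgccccatgtaac
These are matches of letters and no binding was measured. The motifs and the genes shown were chosen after the values were seen.

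**Figure D3:**
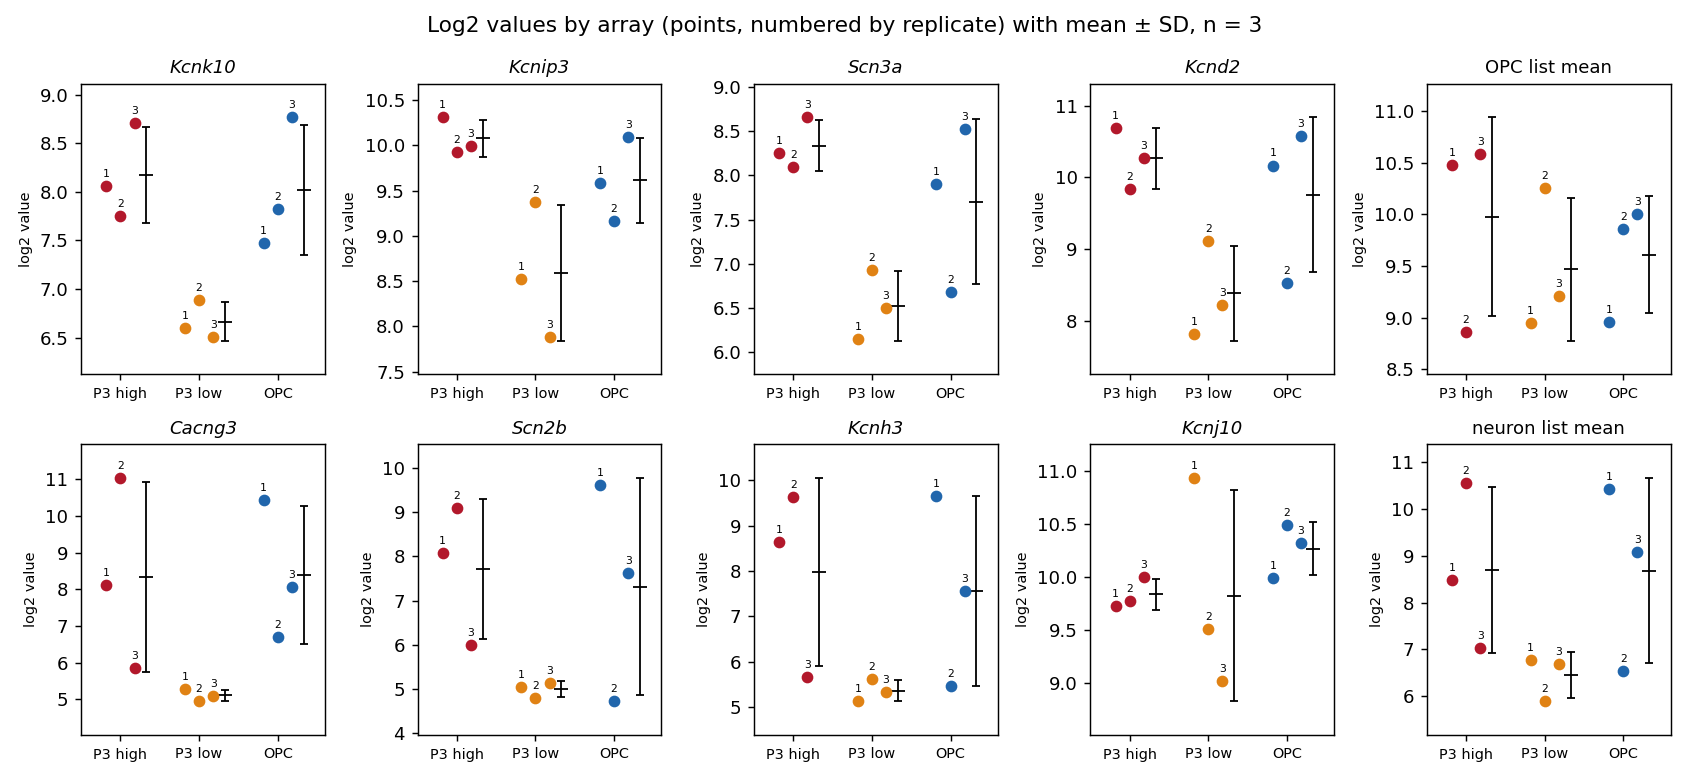
Log2 values on each array (points numbered by replicate) with mean ± SD for 8 channel genes and the means of the OPC and neuron marker lists, in high-DOX P3, low-DOX P3 and OPC lesion groups (n = 3 each). Kcnk10, Kcnip3, Scn3a, Kcnd2, Cacng3, Scn2b and Kcnh3 all keep their 3 high-DOX points above the low-DOX points. Cacng3, Scn2b and Kcnh3 spread more widely among the high-DOX points, with replicate 2 highest and replicate 3 lowest as in the neuron list.

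Of the 36 voltage-gated potassium pores, 5 had an unadjusted p under 0.05 between the doses, all higher in high-DOX tumors: Kcna5, Kcnd2, Kcnd3, Kcnh5 and Kcnv1. Of all genes, 5.25% were higher by this p and 4.89% lower. Kcna1, the pore Kv1.1 of juxtaparanodes, was at 8.37, 8.59 and 8.47 in high-DOX tumors, 9.55, 9.53 and 8.15 in low-DOX tumors and 9.21, 8.58 and 8.63 in OPC lesions, a log2 difference of -0.60 ± 0.37 between the doses, the most negative of the voltage-gated pores. Kcnc1, the fast Kv3.1, and Kcnq3, a subunit of the M current that restrains repetitive firing, had log2 differences of 1.42 ± 0.91 and 1.07 ± 0.70. Kcnh3, an ether-à-go-go family channel of forebrain neurons, was at 8.64, 9.64 and 5.66 in high-DOX tumors, 5.14, 5.62 and 5.34 in low-DOX tumors and 9.65, 5.47 and 7.56 in OPC lesions. Kcnh7, its relative, was below background on every low-DOX array, and with the bound put in place of those values its high-DOX mean was at least 3.40-fold higher. Kcna5, which carries an ultrarapid current, was near background throughout (5.60, 5.23 and 4.73 in high-DOX tumors against 4.12, 4.88 and 4.56 in low-DOX tumors). The Kv1 auxiliary subunits Kcnab1 and Kcnab2 had log2 differences of 1.02 ± 0.75 and 1.22 ± 0.75.

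Kcnma1, the BK channel pore opened by calcium and voltage, was at 8.53, 10.06 and 8.30 in high-DOX tumors, 6.96, 6.84 and 5.61 in low-DOX tumors and 9.87, 6.49 and 8.47 in OPC lesions. Its arrays did not overlap between the doses, and its log2 difference was 2.49 ± 0.86 (adjusted p = 0.43). Its neuronal β subunit Kcnmb4 overlapped, with 7.42, 6.65 and 5.84 in high-DOX tumors against 5.88, 6.38 and 5.85 in low-DOX tumors. The smooth-muscle β subunit Kcnmb1 ran the other way, at 5.64, 5.68 and 5.78 against 5.68, 6.47 and 6.08 (log2 difference -0.38 ± 0.21). Kcnt1 and Kcnt2, opened by sodium, had log2 differences of 1.69 ± 1.0 and 1.70 ± 0.84. Kcnn4, the intermediate-conductance channel of microglia and lymphocytes, was at 4.43, 4.84 and 4.83 in high-DOX tumors and at 5.85, 4.54 and 5.85 in low-DOX tumors, and had its highest value in OPC lesion replicate 2 (7.17).

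Among the inward rectifiers Kcnj10, Kcnj16, Kcnj2 and Kcnj8, best known from glia and vessels, Kcnj16 had the largest difference between the doses and the others were near 0 or below it. Kcnj10, the astrocyte and oligodendrocyte channel Kir4.1, averaged 9.84 ± 0.15 in high-DOX tumors (SD, n = 3) and was at 10.94, 9.51 and 9.02 in low-DOX tumors and at 9.99, 10.49 and 10.32 in OPC lesions. High-DOX and low-DOX means differed by 0.01 ± 0.43 (log2), which leaves room for a difference in either direction. Kcnj16, its partner Kir5.1, had a log2 difference of 0.96 ± 0.53, with low-DOX replicate 3 lowest at 5.85. Kcnj2 of endothelial and muscle cells and Kcnj8 of pericytes had log2 differences of -0.09 ± 0.29 and -0.33 ± 0.70. Among the rectifiers of neurons, Kcnj4 was at 7.04, 8.57 and 4.41 in high-DOX tumors against 5.03, 4.69 and 4.43 in low-DOX tumors, and Kcnj9 at 6.62, 8.66 and 5.96 against 5.66, 5.44 and 5.83. Kcnj3 was at 6.59, 9.08 and 6.20 in high-DOX tumors against 6.22, 7.49 and 6.09 in low-DOX tumors. All 3 had their highest high-DOX value in replicate 2 and their lowest in replicate 3, and only Kcnj9 did not overlap between the doses. Kcnj6 did not keep this order, at 3.99, 7.15 and 4.12 in high-DOX tumors against 5.05, 3.85 and 3.95 in low-DOX tumors. Its values in high-DOX replicates 1 and 3 were under the background bound.

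Several members with the higher mean in low-DOX tumors were low in signal. Kcne4, an auxiliary subunit that damps Kv1 currents, was at 4.23, 4.48 and 4.56 in high-DOX tumors and 4.84, 4.56 and 5.43 in low-DOX tumors (log2 difference -0.52 ± 0.23; adjusted p = 0.50). Kcnh6 and Kcnk15 had log2 differences of -0.29 ± 0.16 and -0.23 ± 0.14. Kcnj5, which did not overlap between the doses, was below background on all 9 arrays, so it has no measured fold. Kcnk5, or TASK-2, was at 4.83, 4.81 and 5.0 in high-DOX tumors and 5.41, 5.41 and 5.44 in low-DOX tumors.

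With the mean of the 19 neuronal markers as a covariate, the median log2 difference of the channel genes between the doses was 0.044, against 0.75 without it, and 67 of 121 were above 0 (55.4%, against 50.9% of all genes). In this fit 7 channel genes had an unadjusted p under 0.05 in the higher direction (5.79%, background 4.79%) and 2 in the lower (1.65%, background 2.38%), shares near those of all genes. The 7 were all among the 20 named without the covariate: Cacng8, Kcnip1, Kcnip3, Kcnk1, Kcnk10, Scn3a and Scn3b. Kcnk10 had a log2 difference of 1.82 ± 0.42 with the covariate, Kcnip1 1.69 ± 0.56, Scn3a 1.57 ± 0.55, Scn3b 1.51 ± 0.38 and Kcnip3 1.44 ± 0.49 (limma adjusted p = 0.69 for each). For 8 of the 20 the difference with the covariate was less than 0.5 times that without it, among them Cacng3 with 0.72 ± 0.57, Cacna1e with 0.94 ± 0.60 and Scn2a with 0.82 ± 0.65. Scn2b and Kcnh3, which did not reach that p, had 0.38 ± 0.43 and 0.35 ± 0.61. Without high-DOX replicate 2, 12 of the 20 had an unadjusted p under 0.05 (in that fit 4.22% of all genes were higher by this p). Kcnk10 and Kcnip3 then had log2 differences of 1.72 and 1.56. High-DOX replicate 3 lay above every low-DOX array for 42 channel genes (34.7%, against 27.7% of all genes). Its neuronal mean was the lowest of the high-DOX arrays (7.03) but above the low-DOX means of 6.77, 5.89 and 6.70.

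**Figure D4:**
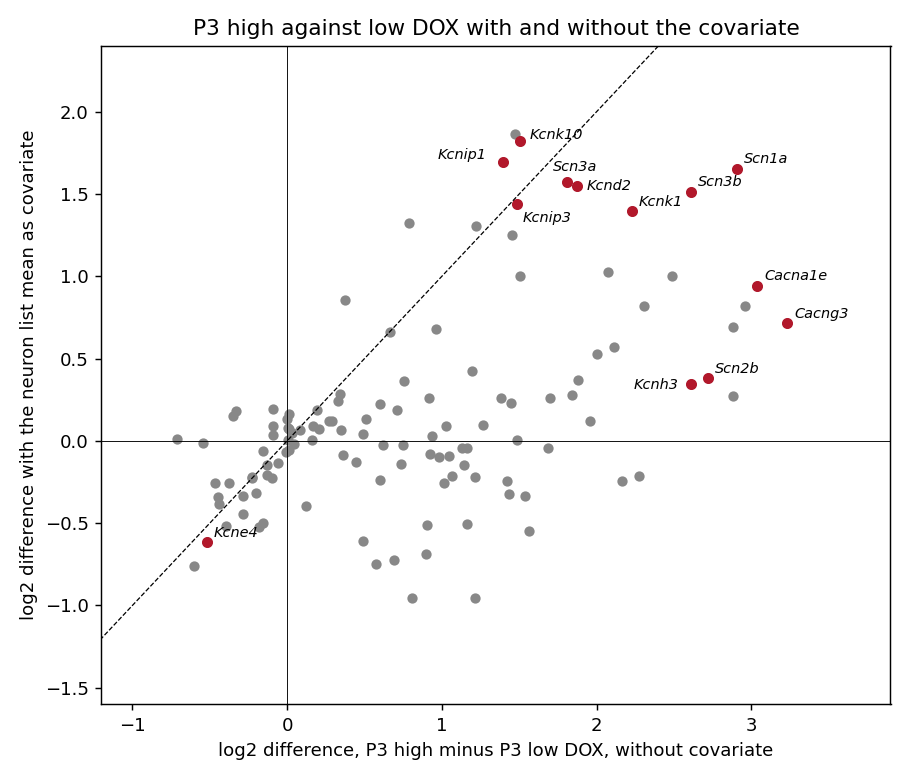
Log2 difference between high-DOX and low-DOX P3 tumors for the 121 channel genes without (horizontal) and with (vertical) the neuron list mean as a covariate; the dashed line marks equal values and red points are named genes. Kcnk10 (1.51 and 1.82) and Kcnip1 (1.39 and 1.69) lie above the line, and Cacng3 (3.23 and 0.72) and Scn2b (2.72 and 0.38) lie far below it.

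Tumors on the low diet were next set against OPC lesions, a comparison that differs in both lesion and diet. No channel gene passed the adjusted threshold (0 of 121, background 0% in each direction), and the low-DOX arrays used are the same as above. Of the 121 genes, 25 had the higher mean in low-DOX tumors (20.7%, against 49.4% of all genes) and the median log2 difference was -0.60 against 0.00 over all genes. With an unadjusted p under 0.05, 15 were lower (12.4%, background 5.41%) and 3, Kcne4, Kcnj5 and Kcnmb1, were higher (2.48%, background 4.40%). The arrays lay wholly below the OPC lesions for 20 genes (16.5%, background 7.92%) and wholly above them for 2, Kcne4 and Kcnj5 (1.65%, background 6.34%). Kcnk10 had a log2 difference of -1.36 ± 0.36, Scn3b of -2.07 ± 0.62 and Kcnip1 of -1.54 ± 0.46 (adjusted p = 0.44 for each). Kcnab3, a β subunit of Kv1 channels, was at 4.29, 4.74 and 4.59 in low-DOX tumors against 8.81, 5.19 and 7.51 in OPC lesions. The 15 lower genes became 41 without OPC lesion replicate 2 (33.9%, against 7.80% of all genes), 9 without OPC lesion replicate 1 (7.44% against 4.37%) or low-DOX replicate 3 (7.44% against 2.88%), and 10 without OPC lesion replicate 3 (8.26% against 2.91%). By the test named in the methods there were 7 (5.79% against 3.6%). Without OPC lesion replicate 1 the median was -0.29. With the neuronal covariate it was 0.055, and 67 of 121 genes were then above 0 (55.4%, against 49.6% of all genes).

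High-DOX tumors were then set against OPC lesions, which shared the 600 mg/kg diet, to compare the lesions at one dose. No channel gene had an adjusted p under 0.05 and 0 of 121 had an unadjusted p under 0.05 in either direction (background 0.897% higher and 0.726% lower). By the two-sided test named in the methods, 1 was higher (0.826%, against 1.28% of all genes) and 0 were lower (against 1.23%). The median log2 difference was 0.09, and 74 of 121 genes had the higher mean in high-DOX tumors (61.2%, against 48.2% of all genes). Cacna1h, a T-type pore, at 8.28, 8.14 and 8.13 against 8.01, 7.96 and 7.86, and Kcnv2, below background throughout, lay wholly above the OPC lesions (1.65%, background 3.34%), and Kcnh6 lay wholly below them (0.826%, background 3.02%). Cacna1c had a log2 difference of 1.02 and Kcnab3 of -1.25, with adjusted p = 1.0 for both. The median was 0.36 without OPC lesion replicate 1, -0.14 without OPC lesion replicate 2 and -0.06 without high-DOX replicate 2. The spread in OPC lesions was wide: Cacna1e was at 7.91, 9.44 and 6.79 in high-DOX tumors and at 8.62, 3.96 and 6.96 in OPC lesions.

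Over both diets, P3 tumors had the higher mean than OPC lesions for 34 of 121 channel genes (28.1%, against 48.8% of all genes), with a median log2 difference of -0.20. This direction was not kept: without OPC lesion replicate 1 the higher mean was in P3 tumors for 67 (55.4%, against 49.3% of all genes; median 0.03), and with the neuronal covariate for 70 (57.9%, against 49.2%; median 0.047). No gene passed the adjusted threshold (0%), and 2 had an unadjusted p under 0.05, both lower in P3 tumors (1.65%, background 2.14%), with 0 higher (background 1.71%). These were Kcnab3 and Kcna2, the Kv1.2 channel of axons. The 6 tumors lay wholly to one side of the OPC lesions for 0 channel genes (background 1.05% above and 0.784% below). Kcna2 was at 8.63, 8.61 and 8.36 in high-DOX tumors, 8.09, 8.35 and 7.64 in low-DOX tumors and 9.62, 8.46 and 9.04 in OPC lesions. OPC lesion replicate 2 overlapped the tumors. Without OPC lesion replicate 2 there were 20 lower genes in place of 2 (16.5%, against 3.44% of all genes), without high-DOX replicate 2 there were 8 (6.61% against 3.43%), and without OPC lesion replicate 3 there were 0 (against 0.978%).

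Genes that cluster channels or serve as further auxiliary subunits lay mostly on the same side as the members. Of 20 such genes, 16 had the higher mean under the high diet when the P3 doses were compared (median log2 difference 1.21, and 50% of all genes above 0), 6 of them with an unadjusted p under 0.05 (background 5.25%), and 1, Nfasc, had such a p in the other direction (background 4.89%). Dpp6, the auxiliary subunit that completes A-type channels with Kcnd2 and the Kv channel-interacting proteins, had a log2 difference of 2.03 ± 0.32 (adjusted p = 0.30) and 1.57 with the neuronal covariate. Cntnap1, which organizes paranodes, had 2.78 ± 0.98 without and 0.90 with the covariate. The 18 pore genes of other cation channel families, such as Hcn, Trp and Cng genes, had a median of 0.01, with 9 above 0 and 1, Tpcn2, with an unadjusted p under 0.05, in the lower direction. Both lists were read by counts alone and their difference was not tested.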

How the data were processed

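The data are 9 Affymetrix MoGene-2_0-st arrays of total RNA. The authors processed them by the robust multichip average (RMA) method in R and Bioconductor and deposited log2 values. An SVA correction is also named in their methods, and whether it had been applied to these values was not stated. Versions were not given in the sources used here. The labels give the high diet as 600 mg/kg; the paper states a slightly different dose. Replicates are called biological; separate mice are not named, so p-values cover only the spread between these arrays. The number of arrays limits the precision.

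Of 41345 probe sets, 23521 name 1 gene in the platform annotation, 1820 name several and 16004 have no name here. For the 1082 genes with several probe sets (10 of them channel genes), that with the highest mean was kept. All 121 channel genes matched a RefSeq gene by identifier. Limma 3.58.1 in R 4.3.3 was fitted to all 9 arrays in 3 groups, with Benjamini-Hochberg adjustment over 22180 genes and a threshold of 0.05, and was tested on simulated data. An "at least" fold uses the background bound where a value lay under it.

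The members, gene lists and tests were chosen with earlier results of these data known. Genes were named by rule: the 5 smallest p-values in each direction and comparison among genes above background in a group compared, and a set of genes chosen by role. Others, such as Scn2a, Scn2b, Kcnh3, Kcnj9, Kcnh7, Kcnk9, Cacng8, Cacna1b, Cacna1d, Cacna1h, Cacna1i, Cacna2d2 and the genes of the partner lists, were named after their values were seen. Alternatives were median centering, 2 filters on low values, averaging of the probe sets of each gene, a variance trend, a fit to the compared groups alone, replicate number as a block, the methods' t-test (two-sided), the neuron list mean as a covariate, and leaving out arrays. Figures used Python 3.11.15 and matplotlib 3.10.9.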

Additional observations from a re-analysis of the deposited data

How the results depend on the processing

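The count of channel genes past the adjusted threshold was 0 in all 4 comparisons under every alternative run, leave-one-out ranges included (0 to 0). The median log2 difference between high-DOX and low-DOX tumors was 0.39 to 0.98 when one array was left out, lowest without high-DOX replicate 2 and highest without high-DOX replicate 3. It was -0.95 to -0.29 for low-DOX tumors against OPC lesions, -0.14 to 0.36 for high-DOX tumors against OPC lesions and -0.54 to 0.03 for both doses against OPC lesions. In these last 2 comparisons the median changed sign without a single OPC lesion or high-DOX array: without OPC lesion replicate 1 the value for both doses was 0.03, and without OPC lesion replicate 2 or high-DOX replicate 2 that of high-DOX tumors was -0.14 or -0.06. With the neuron list mean as a covariate the median moved to 0.044 for high-DOX against low-DOX tumors and to 0.055 for low-DOX tumors against OPC lesions. Without OPC lesion replicate 1 and high-DOX replicate 2 together these medians were 0.39 and -0.29. Channel genes with an unadjusted p under 0.05 in the higher direction between the doses numbered 20 (16.5%, against 5.25% of all genes). With single arrays left out they numbered 12 to 37. There were 12 without high-DOX replicate 1 (9.92%, against 4.35% of all genes) or low-DOX replicate 3 (9.92% against 2.96%). There were 13 without high-DOX replicate 2 (10.7% against 4.22%) and 37 without high-DOX replicate 3 (30.6% against 6.51%). Without OPC lesion replicate 1 there were 30 (24.8% against 6.03%). For low-DOX tumors against OPC lesions the 15 lower genes (12.4%, against 5.41% of all genes) became 41 without OPC lesion replicate 2 (33.9% against 7.80%). They became 9 without OPC lesion replicate 1 (7.44% against 4.37%) or low-DOX replicate 3 (7.44% against 2.88%). Fitting only the groups compared gave 32 higher genes between the doses (26.4%, against 5.59% of all genes). With the neuronal covariate there were 7 higher genes between the doses (5.79%, against 4.79% of all genes) and 2 lower (1.65% against 2.38%). For low-DOX tumors against OPC lesions there were then 3 higher (2.48% against 2.63%) and 4 lower (3.31% against 5.83%). The cause of these shifts was not tested.

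Replicate numbers did not pair the samples. Correlations of deviations between same-numbered arrays ran between -0.478 and 0.265. With the replicate number as a block, 0 channel genes passed the adjusted threshold. Between the doses, 14 had an unadjusted p under 0.05 in the higher direction (11.6%, against 4.14% of all genes) and 1 in the lower (0.826% against 3.84%).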
